A study of Homo sapiens with 26 samples.

Results

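The HSP70 and HSP110 chaperone genes described here are HSPA1A, HSPA1B, HSPA6, HSPA8, HSPA2, HSPA1L, HSPA4, HSPA4L and HSPH1, which are 9 of the 63086 genes in the count files. They were chosen by name, found by their Ensembl identifiers and named with GENCODE symbols. Their RNA was measured by poly(A) RNA-Seq in 26 libraries of HCT116, a human colorectal carcinoma cell line. The genotype of 24 libraries carried an IGF2BP2 knockout, an IGF2BP3 knockout and a Tet-OsTIR1-PURO cassette, together with mCherry-IGF2BP1 expressed from an hPGK promoter after lentiviral transduction. IGF2BP1 is an RNA-binding protein that joins stress-induced condensates. It was wild-type (WT), carried a glutamic acid in place of a serine in its first disordered linker (S181E) or in place of a tyrosine in its second linker (Y396E), or had arginines of the RGG motif in the first linker changed to glutamine (RQ). Each of these 4 populations was given PBS (control) or 500 µM sodium arsenite for 2 hours, with 3 independently plated dishes per group. RNA came from cleared lysate, so RNA that pelleted was not measured. Parental HCT116 gave 1 library per treatment. Each construct was present in 1 sorted population, so that the mutation and the population cannot be told apart, and p-values measure the spread between dishes.

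HSP70 proteins bind stretches of unfolded protein and release them in a cycle of ATP hydrolysis, which J-domain proteins start and nucleotide exchange factors complete. Cells keep a constitutive form, HSC70, encoded by HSPA8, and add nearly identical inducible forms from HSPA1A and HSPA1B, and in human cells also HSPA6, when unfolded protein releases the transcription factor HSF1. The HSP110 proteins, encoded by HSPH1, HSPA4 and HSPA4L, are distant relatives of HSP70 that act as its nucleotide exchange factors. Arsenite reacts with protein thiols and is a common inducer of this response.

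The libraries held 22508145 to 50834401 counts. The Y396E arsenite library of replicate 3 stood apart, with counts in 13897 genes against at least 20850 in every other library, so the main values that rest on it are given with and without it. IGF2BP1 was at 10.5 to 20.1 CPM (counts scaled to a common library size) in the tagged control libraries, at 27.5 to 47.3 CPM in the tagged arsenite libraries, and at 0.343 and 0.638 CPM in the parental ones. The 5 epithelial markers (EPCAM, KRT8, KRT18, KRT19 and CDH1) were present in every library, and their summed level was 2771 to 3604 CPM in control and 4289.9 to 5458 CPM in arsenite, with 4 of 5 called higher in WT. Of 6 markers of other cell types, COL1A1 was at 6.46 to 11.4 CPM and the other 5 (PTPRC, CD3E, COL3A1, PECAM1, CDH5) were at or under 0.205 CPM. In bulk RNA, fewer cells making a transcript and less of it per cell cannot be told apart.

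The promoters of the inducible genes are shown because members differed most in their response to arsenite, and because HSPA1A and HSPA1B are hard to separate. Sequences are from RefSeq, build GRCh38.p14, written 5′ to 3′ on the strand of the gene, with position -1 before the start site. Capitals mark a TATA box or a heat shock element, the binding motif of HSF1, searched on both strands as GAANNTTC or TTCNNGAA for 2 units and as GAANNTTCNNGAA or TTCNNGAANNTTC for 3 units. A match to 3 units always holds matches to 2.
HSPA1A, chr6:31815423-31815542, plus strand, -120 to -1: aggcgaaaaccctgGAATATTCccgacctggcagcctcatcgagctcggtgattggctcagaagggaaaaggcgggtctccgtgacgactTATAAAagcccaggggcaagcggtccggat
HSPA1B, chr6:31827618-31827737, plus strand, -120 to -1: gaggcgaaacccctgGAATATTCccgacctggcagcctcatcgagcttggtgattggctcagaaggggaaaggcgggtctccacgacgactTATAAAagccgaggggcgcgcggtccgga
HSPA6, chr1:161524410-161524539, plus strand, -130 to -1: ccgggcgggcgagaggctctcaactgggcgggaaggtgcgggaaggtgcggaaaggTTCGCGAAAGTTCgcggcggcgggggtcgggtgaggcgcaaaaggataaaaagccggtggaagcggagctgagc
HSPA8, chr11:123062346-123062375, minus strand, distal element: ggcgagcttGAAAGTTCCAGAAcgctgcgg
HSPA8, chr11:123062171-123062200, minus strand, proximal element: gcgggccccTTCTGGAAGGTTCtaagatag

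A 3-unit element lay in 0.49% of the 35116 RefSeq promoter windows of all genes, which run from 250 bases before to 50 bases after the start. Among the 9 members it was found in HSPA6, from -74 to -62, and at both places shown in HSPA8, from -230 to -218 and from -55 to -43. A 2-unit element lay in 13.49% of all windows and in those of 6 members (HSPA1A, HSPA1B, HSPA1L, HSPA4L, HSPA6 and HSPA8). The TATA box (TATAAA) lay in 11.53% of all windows and in those of HSPA1A, HSPA1B, HSPA1L and HSPA4L. HSPA1L and HSPA1A are transcribed away from each other and their windows overlap, so the 2-unit element of HSPA1A, from -106 to -99, is also the one found for HSPA1L, from -161 to -154, and the TATA match of HSPA1L, from -235 to -230, is the TATA box of HSPA1A on the opposite strand. No match means only that these letters are not in the window. The 250 bases before the starts of HSPA1A and HSPA1B were 93.6% identical.

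HSPA1A (chromosome 6, 31815543 to 31817946, plus strand) and HSPA1B (31827738 to 31830254, plus strand) code for nearly the same protein. Their longest transcripts were 91.2% identical over an alignment with gaps. Reads were single and 100 bases long, and a read that fits both genes was not counted. Of the 100-base windows along each gene, 1666 were shared, which left 639 windows seen once in the main chromosomes of hg38 for HSPA1A and 752 for HSPA1B. Alternative sequences of the region were not searched. The HSPA1B exon also shares 920 bases with a non-coding gene on the same strand (ENSG00000285565), which had 0 counts in all libraries. With windows that touch both left out, 609 windows of HSPA1B remained, close to the 639 of HSPA1A. Neither gene shared a window with any other member.

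Counts of the pair nonetheless came almost wholly from HSPA1B. HSPA1A gave 2.15% to 4.85% of the pair's counts in the 26 libraries. In WT control it was 3.77% ± 0.417 (SD, n = 3) and in WT arsenite 3.22% ± 0.233 (n = 3). Per countable window, HSPA1B was 20.6 to 47.7 times as high as HSPA1A, in control and arsenite alike and in the parental libraries. The exact binomial intervals (95%) of single control libraries were wide, for example 1.19% to 3.6% around the 2.16% of RQ control replicate 1, and cover counting error only. The highest arsenite share, 4.44%, was that of the Y396E library that stood apart, and without it the arsenite libraries reached 3.74%. Whether alleles of the cell line that differ from the reference sequence move reads between the genes was not tested.

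**Figure D1:**
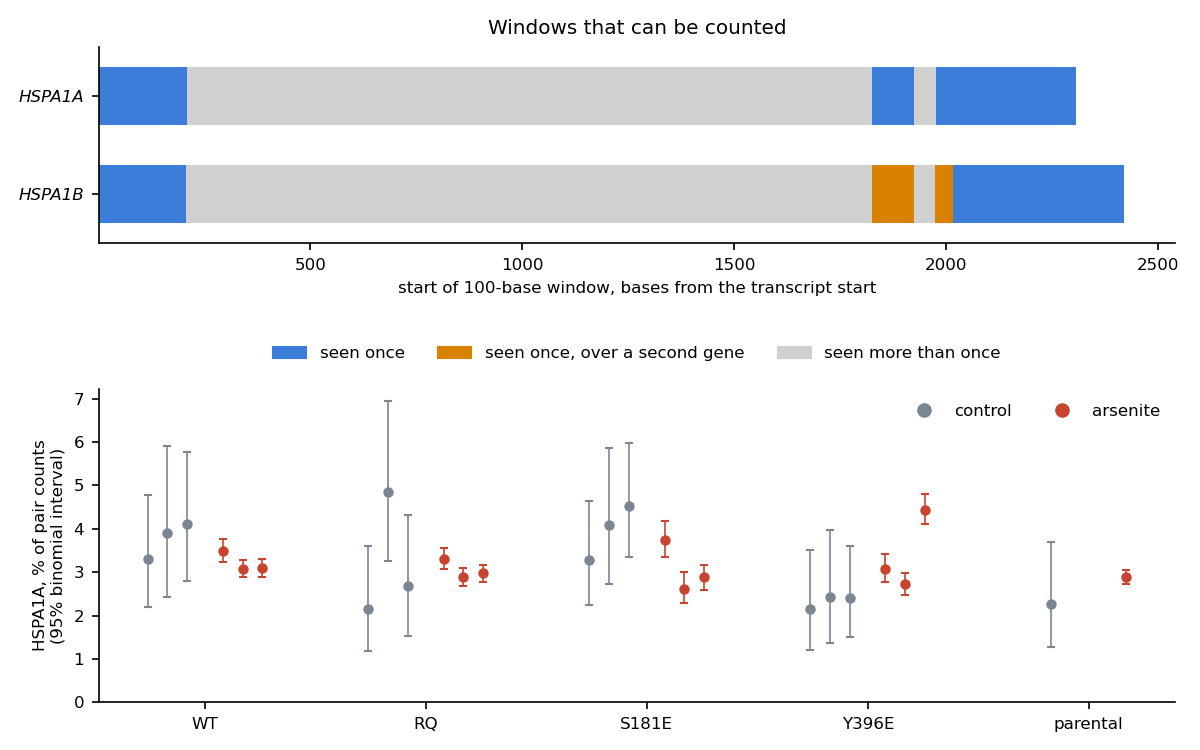
The upper panel maps 100-base windows along HSPA1A and HSPA1B by distance from the transcript start, in blue where a read can be counted, in orange where it also lies over a second gene and in grey where it is repeated in the genome. The lower panel plots the percent of the pair's counts that went to HSPA1A in each library, with its 95% binomial interval, by population and treatment, and all 26 points lie between 2.15% and 4.85%.

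To compare levels between genes, the CPM scaled with the trimmed mean of M-values (TMM) was divided by the exon length in kilobases. HSPA8 was by far the highest in WT control, at 276 ± 11.9 CPM per kb (SD, n = 3), followed by HSPA4 at 30.6 ± 4.39, HSPH1 at 14.5 ± 0.299 and HSPA1B at 9.36 ± 0.853. HSPA4L (1.12 ± 0.036), HSPA1A (0.384 ± 0.0606), HSPA1L (0.306 ± 0.0754) and HSPA2 (0.216 ± 0.115) were low, and the last 3 did not differ beyond their spread. HSPA6 was close to 0 (0.00428 ± 0.00742). In WT arsenite the order became HSPA8 (1043 ± 14.8), HSPA1B (281 ± 3.97), HSPH1 (98.2 ± 3.1), HSPA4 (79.6 ± 1.72), HSPA1A (9.78 ± 0.795), HSPA4L (4.37 ± 0.145) and HSPA2 (1.15 ± 0.0667), with HSPA6 (0.369 ± 0.0837) and HSPA1L (0.334 ± 0.0842) within each other's spread. HSPA1B thus passed HSPH1 and HSPA4 on this scale. This change of order rests on the exon length. With its countable windows as length, HSPA1B lay above both already in WT control.

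The constitutive HSPA8 took 83% ± 0.793 of the summed level per exon length of the 9 members in WT control and 68.7% ± 0.32 in WT arsenite, while HSPA1B went from 2.81% ± 0.144 to 18.5% ± 0.389 (SD, n = 3). The exon length is too long for HSPA1A, HSPA1B and HSPA6, since parts of them cannot be counted. With their countable windows as length, a choice made after seeing the data, HSPA1B was at 1160.0 ± 16.4 CPM per kb in WT arsenite. The other members kept their exon length, 2699 bases for HSPA8, which stayed at 1043 ± 14.8. The longest transcript of HSPA8 had 2306 bases, and 1628 of its 1709 windows were seen once. Which of HSPA1B and HSPA8 was higher therefore rests on the lengths used and was not settled. HSPA1B then took 47.9% ± 0.632 of the summed level in WT arsenite, 56.2% ± 0.775 in RQ, 33.6% ± 1.09 in S181E and 35.1% ± 2.41 in Y396E, against 10.1% to 11.4% in the control groups of the 4 populations. The summed level of the members on this scale was 2423 ± 15.1 in WT arsenite, 2624 ± 157 in RQ, 1555 ± 52.6 in S181E and 1577 ± 73.4 in Y396E. HSPA1B weighs more in these sums than per exon length, since its divisor went from 2517 bases to 609 windows. Per exon length HSPA8 was at 1043 CPM per kb in WT and 921 in RQ arsenite, and HSPA1B at 281 and 357. The sum was therefore higher in RQ than in WT with countable windows but not per exon length. The S181E and Y396E sums also lay closer to that of WT per exon length. Without the Y396E library that stood apart, HSPA1B took 35.8% ± 2.91 of a summed level of 1557 ± 91.6 in Y396E arsenite (n = 2). Per exon length it took 12.1% ± 1.37 of 1121 ± 29.6 in the same libraries.

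**Figure D2:**
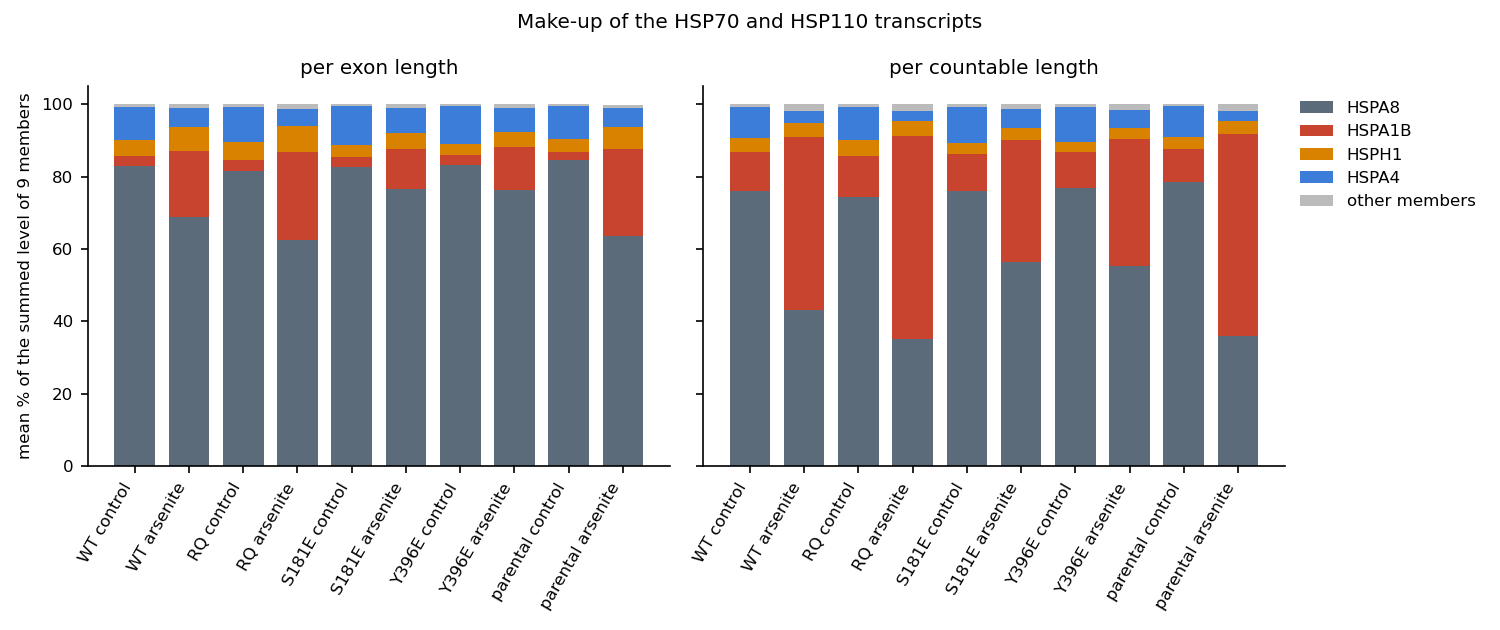
Stacked bars give the mean percent of the summed level of the 9 members taken by HSPA8, HSPA1B, HSPH1, HSPA4 and the other members, for each population and treatment. The divisor was the exon length (left), or the countable length for HSPA1A, HSPA1B and HSPA6 and the exon length for the others (right). The red share of HSPA1B grew with arsenite in every population and on both scales, and under the countable length it reached 56.2% in RQ.

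Control and arsenite dishes of the same population were compared first, to see how far the stress moved each gene. Calls were made at an adjusted p under 0.05 and a fold change above 1.2, with edgeR's quasi-likelihood test and Benjamini-Hochberg adjustment over 9099 protein-coding genes with a CPM above 10 in at least 12 of 24 libraries. By this rule 5 members were tested (HSPA1B, HSPA8, HSPA4, HSPA4L and HSPH1). The other 4 (HSPA1A, HSPA6, HSPA1L and HSPA2) were below it and were tested among 12048 protein-coding genes with a CPM above 1 in at least 3 libraries. HSPA6 passed that lower rule only through arsenite libraries (4 of them, and 0 control libraries above 1 CPM), as did HSPA1L (8 and 1), so a difference between treatments was built into the choice of HSPA6 and favoured for HSPA1L. HSPA1A passed with 3 control libraries alone.

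HSPA1B, the inducible HSP70, was at 23.9, 21.2 and 25.5 CPM in the WT control libraries and at 710.5, 695 and 714 CPM in WT arsenite. It rose 29.9-fold, a log2 change of 4.90 ± 0.09 (SE, adjusted p = 5.32e-24). In RQ it rose from 21, 21.7 and 19.5 CPM to 967, 861 and 866 CPM. S181E libraries went from 28.8, 24.2 and 26.4 CPM to 332, 296 and 328 CPM, and Y396E libraries from 24.3, 24.5 and 27.5 CPM to 374, 307 and 331 CPM. The 3 arsenite libraries of RQ all lay above those of WT, and those of S181E and Y396E all lay well below them. The log2 changes were 5.44 ± 0.09 in RQ, 3.59 ± 0.08 in S181E and 3.73 ± 0.08 in Y396E, each called. In WT and in RQ only 3 of 9099 genes rose more than HSPA1B.

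HSPA1A, counted at a few percent of its near copy, was at 0.817, 0.863 and 1.09 CPM in WT control and at 25.7, 22.1 and 22.8 CPM in WT arsenite. Its log2 change was 4.64 ± 0.25 in WT and 5.34 ± 0.26 in RQ, against 3.18 ± 0.24 in S181E and 4.26 ± 0.26 in Y396E, all called among the 12048 genes. Without the Y396E library that stood apart, the Y396E value was 4.01. When the counts of the pair were summed, the log2 changes were 4.90 ± 0.09 in WT and 5.43 ± 0.09 in RQ, against 3.58 ± 0.08 in S181E and 3.74 ± 0.08 in Y396E, so that the sum carried the HSPA1B values.

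HSPH1, the stress-inducible HSP110, showed the next largest response of the 5 tested members. It was at 84.1, 80.8 and 81.7 CPM in WT control and at 546, 577 and 548 CPM in WT arsenite. This was a 6.77-fold rise (log2 2.76 ± 0.06, adjusted p = 2.2e-22), and 17 genes of 9099 rose more. RQ went from 79.3, 76 and 74.9 CPM to 656, 573 and 572 CPM (log2 2.97 ± 0.06). In S181E it rose from 71.1, 72.2 and 74.5 CPM to 307, 283 and 305 CPM (log2 2.04 ± 0.06), and in Y396E from 62.3, 67.1 and 66.1 CPM to 293, 272 and 251 CPM (log2 2.06 ± 0.06). Arsenite libraries of S181E and Y396E did not overlap those of WT or RQ.

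The constitutive HSPA8 also rose, from 768, 708 and 758 CPM to 2843, 2830.5 and 2768 CPM in WT, which was 3.78-fold (log2 1.92 ± 0.06, adjusted p = 7.87e-20). Its log2 changes were 2.05 ± 0.06 in RQ, 1.43 ± 0.05 in S181E and 1.46 ± 0.05 in Y396E. HSPA4L, a low HSP110 gene, rose 3.89-fold in WT (log2 1.96 ± 0.09), from between 11.9 and 12.6 CPM to between 46.2 and 49.2 CPM, and by a log2 of 2.04 ± 0.09 in RQ, 1.49 ± 0.08 in S181E and 1.59 ± 0.08 in Y396E. HSPA4, the most abundant HSP110 gene in control cells, rose least, from 160.1, 122 and 157 CPM to 374, 389 and 377 CPM in WT, or 2.59-fold (log2 1.38 ± 0.08). Its log2 changes elsewhere were 1.43 ± 0.08 in RQ, 0.89 ± 0.08 in S181E and 0.93 ± 0.08 in Y396E.

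All 5 tested members were thus called higher after arsenite in each of the 4 populations. Most genes were called in these comparisons: 72.2% of those tested in WT and 72.9% in RQ, against 65.3% in S181E and 65.8% in Y396E, with 36.3%, 37.1%, 32% and 32.9% called higher. Among the 12048 genes the shares were 65.1% and 65.8% in WT and RQ, and 58.9% and 60.9% in S181E and Y396E. The count of calls alone therefore says little about the members, and the sizes of the changes are the result. The median log2 change of the 9099 genes was -0.01 in WT and RQ and -0.03 in S181E and Y396E. Scaling by library totals moved that median by 0.16 in WT and RQ and by 0.04 and 0.05 in S181E and Y396E, and made higher genes 61.4% of the calls in WT (50.3% before) and 61.8% in RQ (50.9% before). The 5 members stayed called there. Without the Y396E library that stood apart, the Y396E log2 changes were 3.76 for HSPA1B, 2.14 for HSPH1, 1.44 for HSPA8, 1.51 for HSPA4L and 0.93 for HSPA4.

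**Figure D3:**
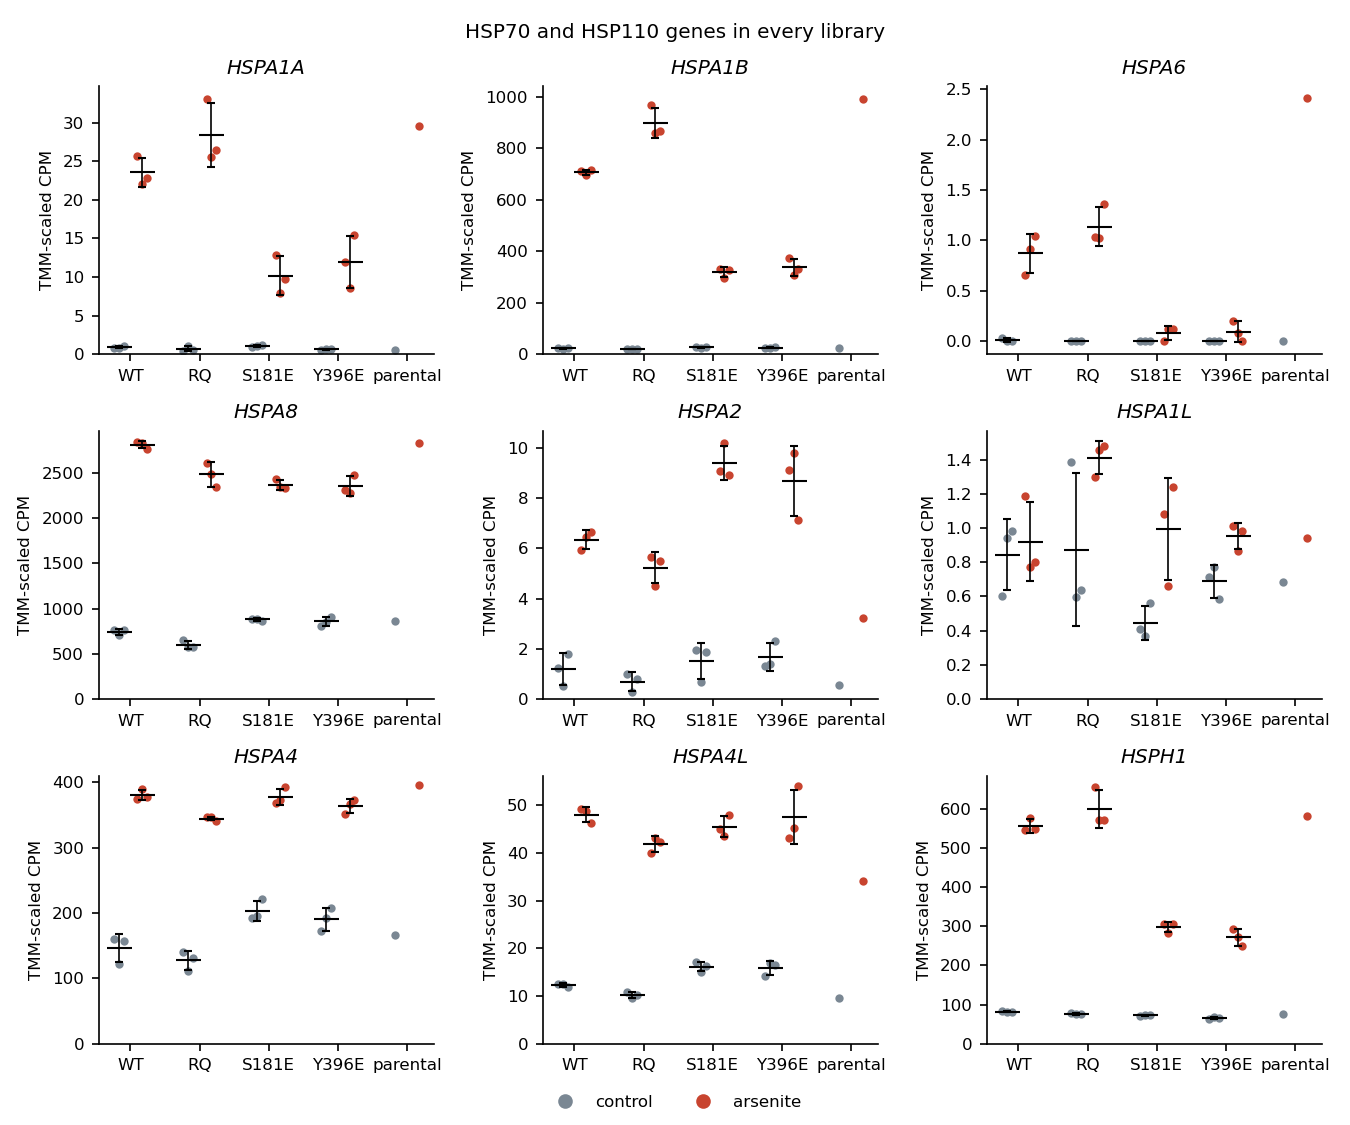
Each panel plots the TMM-scaled CPM of 1 gene in every library on its own linear axis, with control in grey, arsenite in red, the mean and the SD of 3 libraries as bar and whiskers, and 1 library per treatment for parental cells. Arsenite points of HSPA1B, HSPH1, HSPA1A and HSPA6 are lower in S181E and Y396E than in WT and RQ, while those of HSPA4 and HSPA4L lie close together in all 4 populations.

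Among the low members, HSPA6 was the closest to an all-or-none pattern. This HSP70 gene is absent from mice and is known as strictly inducible. It had 1 count in the 3 WT control libraries together and 17, 38 and 40 counts in the WT arsenite libraries, a ratio of 76.9 at equal depth with a counting interval of 13.5 to 3068. RQ control libraries had 0 counts and RQ arsenite libraries 23, 33 and 48, which is 32.9-fold higher when 3 counts over the group are taken as the limit that a count of 0 allows. S181E arsenite libraries had 0, 3 and 5 counts and Y396E arsenite libraries 6, 4 and 0, with 0 in their controls, or 2.88-fold and 2.34-fold higher against the same limit. These ratios leave out the counting error of the arsenite counts, 8 over the S181E group and 10 over the Y396E group. The Y396E library with 0 counts is the one that stood apart. Every WT and RQ arsenite library lay above every S181E and Y396E arsenite library. The 4 libraries that carried HSPA6 past the lower rule were WT and RQ arsenite libraries, so no test against S181E and Y396E is given. HSPA6 shares 628 of its 2256 windows with HSPA7, a neighbouring pseudogene, which had 2 counts in all libraries together.

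HSPA2, an HSP70 gene best known from the testis, was at 1.24, 0.534 and 1.79 CPM in WT control and at 5.95, 6.44 and 6.67 CPM in WT arsenite. It was called higher in all 4 populations, with log2 changes of 2.37 ± 0.34 in WT and 2.86 ± 0.37 in RQ, against 2.59 ± 0.33 in S181E and 2.33 ± 0.32 in Y396E (2.45 without the library that stood apart). Here the arsenite libraries of S181E (8.94 to 10.2 CPM) and Y396E (7.14 to 9.79 CPM) all lay above those of WT. How many of all genes separate in this way was not counted. HSPA4 also separated from WT in Y396E arsenite, at a log2 difference of only -0.06 ± 0.08. The log2 differences of HSPA2, 0.56 ± 0.29 and 0.45 ± 0.29, were not called (adjusted p = 0.195 and 0.244, edgeR), where 12.9% and 21.6% of the 12048 genes were. Without the Y396E library that stood apart both were called, at 0.56 in S181E and 0.57 in Y396E (adjusted p = 0.0172 and 0.023), and S181E was also called when only the groups compared were fitted (0.56, adjusted p = 1.23e-05). HSPA1L, whose promoter faces that of HSPA1A, stayed between 0.368 and 1.48 CPM in every tagged library. It passed the lower rule with 8 arsenite libraries and 1 control library above 1 CPM. That choice favoured a rise, so calls of its change are not support for one. Its log2 change was called in S181E, at 1.12 ± 0.37 (adjusted p = 0.0114), which was lost without S181E arsenite replicate 3 (0.91, adjusted p = 0.0712). It was 0.10 ± 0.36 in WT, 0.66 ± 0.35 in RQ and 0.44 ± 0.36 in Y396E, none of them called. The RQ change was called without RQ control replicate 1 (1.17, adjusted p = 0.00822) or without the Y396E library that stood apart (0.66, adjusted p = 0.0335), under library totals (0.85, adjusted p = 0.0341) and when only the groups compared were fitted (0.65, adjusted p = 0.0437).

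**Figure D4:**
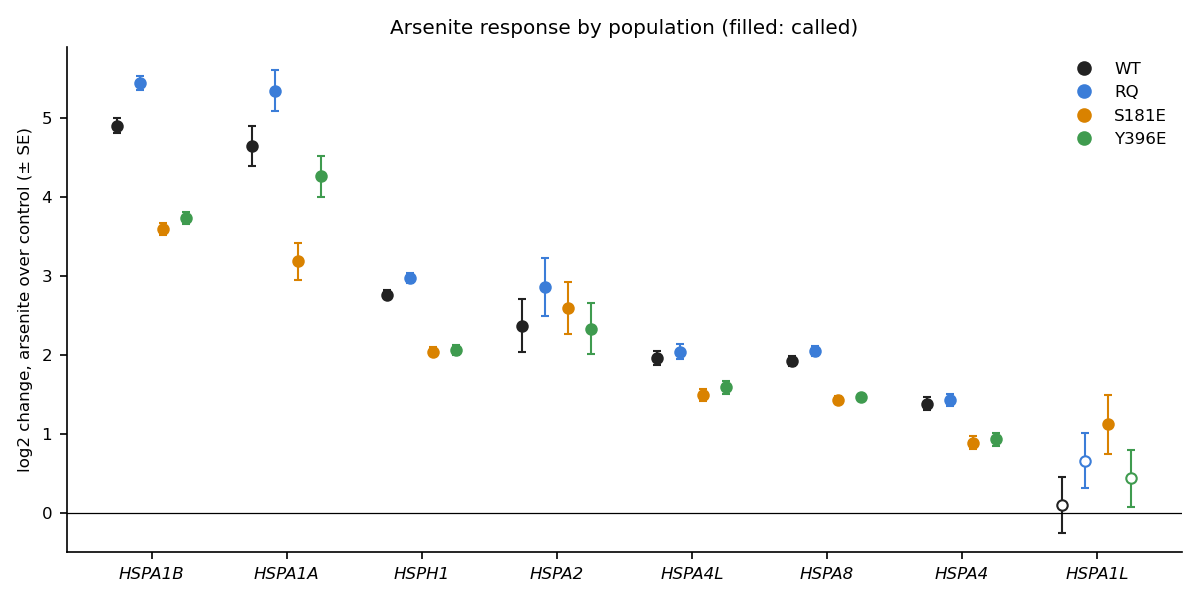
The log2 change between arsenite and control is plotted for 8 members in the 4 populations, as the fitted value with its SE, filled where called. HSPA1B runs from 3.59 in S181E to 5.44 in RQ, the S181E and Y396E values lie below those of WT for HSPA1B, HSPA1A, HSPH1, HSPA4L, HSPA8 and HSPA4, and those of HSPA1L lie above it.

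The parental cells, which lack the transgene, gave 1 library per treatment and hence no test. The paper describes them as nonengineered HCT116, so the transgene and the IGF2BP2 and IGF2BP3 knockouts of the tagged cells cannot be told apart here. HSPA1B was at 22.3 CPM in control and 993 CPM in arsenite, a ratio of 44.6. HSPH1 was at 75.5 and 583 CPM (ratio 7.73), HSPA8 at 861 and 2833 CPM (3.29), HSPA4L at 9.64 and 34.1 CPM (3.54) while HSPA4 had a ratio of 2.39. HSPA6 had 0 and 87 counts. The parental arsenite library thus lay above every tagged library for HSPA1B, HSPA6 and HSPA4, below every tagged arsenite library for HSPA4L and HSPA2, and within the range of the WT and RQ arsenite libraries for HSPH1.

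The populations were then compared without stress. HSPA8 was lower in RQ, at 652, 579 and 572 CPM against 768, 708 and 758 CPM in WT (log2 -0.31 ± 0.05, adjusted p = 0.00143), and was the only member called of the 5 tested, with 1.43% of all genes called. The other 4 had log2 differences from -0.27 to -0.10. HSPA4L (-0.27 ± 0.09, adjusted p = 0.144) was called without the Y396E arsenite library that stood apart (adjusted p = 0.0368), and HSPA4 (-0.20 ± 0.08) without WT control replicate 2 (-0.31, adjusted p = 0.0202). When only the WT and RQ control libraries were fitted, HSPA8 was not called either (adjusted p = 0.073).

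In S181E and Y396E control cells the HSP110 genes moved in different directions. HSPA4 was at 193, 196 and 221 CPM in S181E and 172, 193 and 207 CPM in Y396E, all above the WT libraries (log2 0.47 ± 0.08 and 0.38 ± 0.08, adjusted p = 5.55e-05 and 6.45e-04). HSPA4L was higher by a log2 of 0.39 ± 0.09 in S181E and 0.36 ± 0.09 in Y396E (adjusted p = 8.1e-04 and 0.00209). HSPH1 was lower in Y396E, by -0.34 ± 0.06 (adjusted p = 6.28e-05), and its difference of -0.18 ± 0.06 in S181E passed the p but not the fold threshold. HSPA8 was above WT in every S181E and Y396E library (log2 0.24 ± 0.05 and 0.21 ± 0.05), also under the fold threshold. HSPA1B, at 0.17 ± 0.08 and 0.11 ± 0.09, was not called. Of the 5 members 2 were called in S181E and 3 in Y396E, where 31.1% and 28.6% of all genes were called. Scaling by library totals raised the median of all genes by 0.16 in S181E and 0.13 in Y396E, and on that scale HSPA1B and HSPA8 were also called higher in S181E (0.32 and 0.39), HSPA8 in Y396E (0.33), and HSPH1 was no longer called in Y396E (-0.21). That scaling took the share of higher genes among all calls from 50.4% to 83.5% in S181E, from 50.5% to 80.9% in Y396E and from 70% to 38.3% in RQ. HSPA1A, HSPA1L and HSPA2 had no call in any mutant control comparison, where 1.08% of the 12048 genes were called in RQ, 27.5% in S181E and 25.4% in Y396E. HSPA6, with 1 count over the WT control libraries and 0 over those of each mutant, could not be compared there. HSPA1L was lowest in S181E control, at 0.368 to 0.559 CPM against 0.605 to 0.984 CPM in WT (log2 -0.88 ± 0.38, adjusted p = 0.0716), and was called without WT control replicate 1 (-1.09), RQ control replicate 1 (-0.89) or the Y396E library that stood apart (-0.86), and when only the groups compared were fitted (adjusted p = 0.0458).

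In S181E and Y396E after arsenite, the 2 most induced members of the 5 tested differed most from WT. HSPA1B was 2.22-fold lower in S181E than in WT (log2 -1.15 ± 0.07, adjusted p = 5.32e-12) and 2.09-fold lower in Y396E (log2 -1.07 ± 0.07, adjusted p = 1.35e-11). HSPH1 was 1.87-fold lower in S181E (log2 -0.90 ± 0.06, adjusted p = 5.6e-12) and 2.05-fold lower in Y396E (log2 -1.04 ± 0.06, adjusted p = 3.72e-13). HSPA1A was lower by a log2 of 1.21 ± 0.19 in S181E and 0.99 ± 0.18 in Y396E, both called among the 12048 genes. HSPA8 was at 2432, 2341 and 2339 CPM in S181E and 2314, 2278 and 2483 CPM in Y396E, below all WT libraries, but its log2 difference of -0.25 ± 0.05 in both lay just under the fold threshold. HSPA4 (-0.01 ± 0.08 and -0.06 ± 0.08) and HSPA4L (-0.08 ± 0.08 and -0.02 ± 0.08) were not called, and the 95% intervals of their differences reached no further than -0.24 and 0.17. With 2 of 5 members called in each, the share over all genes was 13.7% in S181E and 21.7% in Y396E.

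Only 24 of 9099 genes lay lower against WT than HSPA1B in S181E arsenite, and 36 in Y396E arsenite. Among the 12048 genes 12.9% were called in S181E and 21.6% in Y396E. Without the Y396E library that stood apart the Y396E differences were -1.04 for HSPA1B, -0.97 for HSPH1 and -1.22 for HSPA1A, and HSPA8 was then called (-0.28, adjusted p = 3.23e-04). HSPA8 was also called without WT arsenite replicate 3 in Y396E (-0.27) and without S181E arsenite replicate 1 in S181E (-0.27). In RQ arsenite HSPA1B was 1.27-fold higher than in WT (log2 0.35 ± 0.07, adjusted p = 0.00447) and was the 1 member called, with 1.52% of all genes called and 1.12% among the 12048. The call was lost under library totals (0.30, adjusted p = 0.0501), where higher genes made up 77.7% of all calls instead of 89.9%, and 55.6% instead of 38.7% in S181E. HSPH1 (0.11 ± 0.05), HSPA4 (-0.14 ± 0.08), HSPA4L (-0.20 ± 0.08) and HSPA8 (-0.18 ± 0.05) were not called in RQ.

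**Figure D5:**
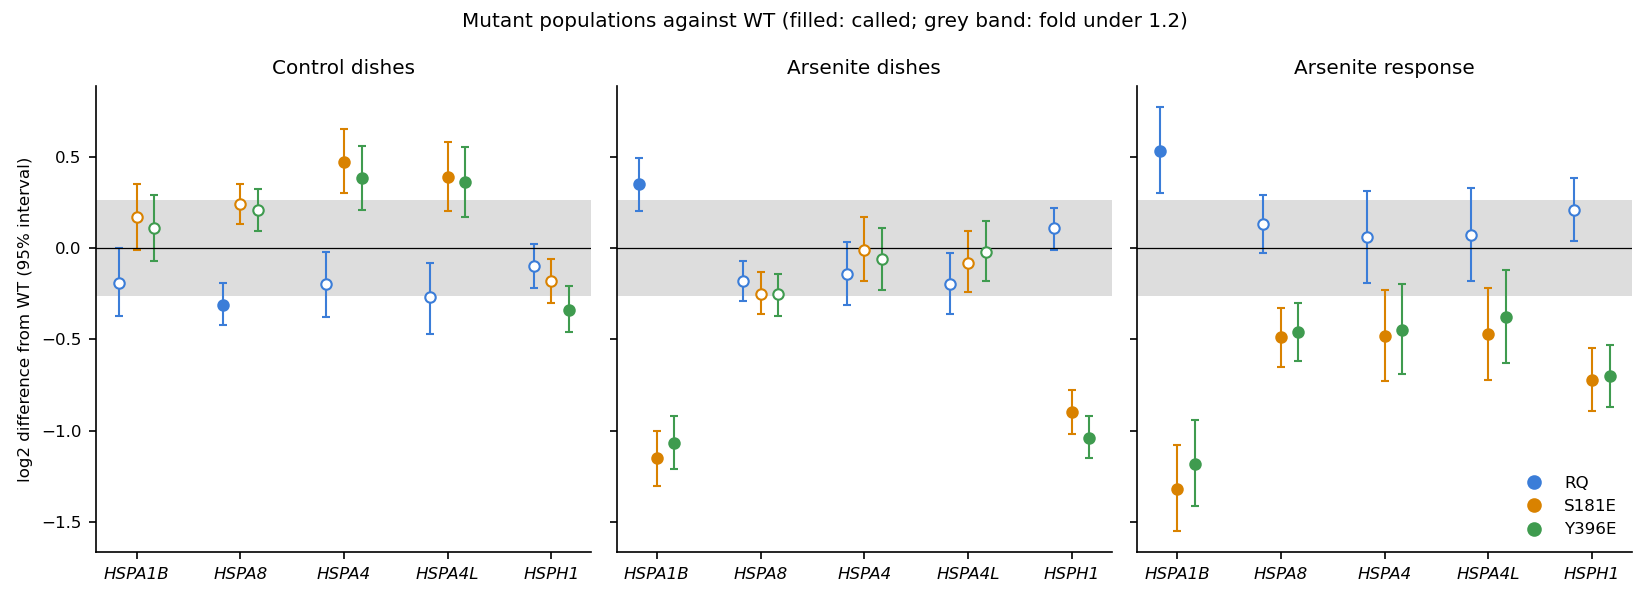
The log2 difference of RQ, S181E and Y396E from WT is plotted with its 95% interval for the 5 tested members, in control dishes, in arsenite dishes and as the difference between arsenite responses, filled where called, with the band of folds under 1.2 in grey. In the right panel the S181E and Y396E points of every gene lie below 0, from -0.38 for HSPA4L in Y396E to -1.32 for HSPA1B in S181E.

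The difference between arsenite responses was tested directly as the interaction of population and treatment. All 5 tested members responded less in S181E and in Y396E than in WT, where 16.4% and 21.5% of all genes were called (9.41% and 11.1% of all genes with a lower value). HSPA1B responded 2.49-fold less in S181E (log2 -1.32 ± 0.11, adjusted p = 7.74e-08), the lowest value of all 9099 genes, and 2.26-fold less in Y396E (-1.18 ± 0.11, adjusted p = 2.88e-07), the second lowest. Under library totals the median of all genes moved by -0.11 in S181E and -0.10 in Y396E, and higher genes fell from 42.6% to 13% and from 48.1% to 18.4% of all calls, while the 5 members stayed called. HSPH1 had differences of -0.72 ± 0.08 and -0.70 ± 0.08 (adjusted p = 3.23e-06 and 4.17e-06). HSPA8, the constitutive gene, had -0.49 ± 0.08 and -0.46 ± 0.08 (adjusted p = 1.94e-04 and 2.36e-04).

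For HSPA4 and HSPA4L the smaller response went with a higher control level and an arsenite level that was not called different. HSPA4 differed by -0.48 ± 0.12 in S181E and -0.45 ± 0.12 in Y396E (adjusted p = 0.00665 and 0.0084), and HSPA4L by -0.47 ± 0.12 and -0.38 ± 0.12 (adjusted p = 0.00894 and 0.0239). For HSPA1B and HSPH1 the arsenite level was lower. The control level of HSPH1 was lower as well, called in Y396E (-0.34 ± 0.06) and under the fold threshold in S181E (-0.18 ± 0.06). HSPA8 lay higher in control and lower in arsenite, each under the fold threshold. The HSPA4L call in Y396E was lost without WT arsenite replicate 1 (-0.36), Y396E arsenite replicate 1 (-0.31), Y396E control replicate 2 (-0.32) or replicate 3 (-0.35), with adjusted p of 0.0504 to 0.0697, and when only the groups compared were fitted (-0.37, adjusted p = 0.0897). Without the Y396E library that stood apart the 5 differences in Y396E ran from -1.13 for HSPA1B to -0.43 for HSPA4. HSPA1A was called in S181E (-1.46 ± 0.36, adjusted p = 0.0111), where 11.7% of the 12048 genes were called, and not in Y396E (-0.39 ± 0.41, adjusted p = 0.542, or -0.63 and 0.258 without that library), where 15.6% were. HSPA1L and HSPA2 were called in neither.

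In RQ the response of HSPA1B was larger than in WT, by 0.53 ± 0.11 (log2, adjusted p = 0.0367), 1 of 20 genes called (0.22%). The call stood close to the threshold. It was lost when any 1 of 13 libraries was left out, namely 11 of the 12 WT and RQ libraries (WT control replicate 2 being the exception), Y396E control replicate 2 or S181E arsenite replicate 3, with values from 0.48 to 0.57. It was also lost with a fold threshold of 2, under library totals (0.54, adjusted p = 0.0813) and in the fit to the 12048 genes (0.54, adjusted p = 0.0544), in which 0.133% of genes were called. It was kept with the replicate number as a block (0.53, adjusted p = 0.00573) and with DESeq2 (0.52, adjusted p = 0.002). A fit to only the groups compared (0.53, adjusted p = 0.0162) and one without the Y396E library that stood apart (0.53, adjusted p = 0.00998) also kept it. HSPH1 differed by 0.21 ± 0.08 (adjusted p = 0.98), and HSPA8, HSPA4 and HSPA4L by 0.13 or less.

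Y396E and S181E were also compared with each other. No member was called, and neither was any gene in the edgeR test, so 0% of 9099 genes passed in control and 0% in arsenite. At an unadjusted p under 0.05 there were 289 genes in control and 1375 in arsenite, and DESeq2 called 1 and 9 genes. Without Y396E arsenite replicate 2, 692 genes were called in arsenite and again 0 members. The intervals of the members' differences bound what could have been seen. For HSPA1B the log2 difference lay between -0.23 and 0.12 in control and between -0.06 and 0.23 in arsenite, and for HSPH1 between -0.28 and -0.03 in control and between -0.25 and -0.02 in arsenite.

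Partners of the HSP70 cycle were counted over whole lists of the pathway's genes. In the arsenite comparison of WT, 7 of 11 tested J-domain genes were called higher and 0 lower, with a median log2 change of 0.71, where 36.3% of all genes were called higher and 35.9% lower. DNAJB4 (2.56 ± 0.07) and DNAJB1 (2.46 ± 0.05), both partners of cytosolic HSP70, rose most. Nucleotide exchange and other cofactors were split, with 5 of 12 higher and 4 lower and a median of 0.10, near the shares over all genes. BAG3, an exchange factor that leads HSP70 clients to autophagy, rose from 57.7 ± 3.05 to 459.9 ± 3.12 CPM (log2 2.99 ± 0.06), and CHORDC1, a cochaperone of HSP90, by 1.52 ± 0.06, while BAG1 (-0.67 ± 0.05) and SIL1 (-0.50 ± 0.08), the exchange factor of the ER, fell. Other HSP70 family genes were higher in 4 of 6, with the mitochondrial HSPA9 at 1.67 ± 0.07 and the ER form HSPA5 at 0.65 ± 0.09. In RQ, S181E and Y396E the J-domain genes counted 7, 7 and 7 higher and 1, 0 and 0 lower, the cofactors 5, 4 and 4 higher and 4, 3 and 2 lower, and the other HSP70 genes 5, 4 and 4 higher and 0 lower. Over all genes 37.1%, 32% and 32.9% were called higher and 35.8%, 33.3% and 32.9% lower in these populations, and the cofactors were near those shares.

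The interaction in the mutants was counted over the same lists. Of the 11 J-domain genes 6 were called with a smaller response in S181E and 6 in Y396E and 0 with a larger one, with medians of -0.27 and -0.30, where 9.41% and 11.1% of all genes were called with a lower value. For DNAJB1 the difference was -0.77 ± 0.07 in S181E and -0.73 ± 0.07 in Y396E. Of the 12 cofactors 3 were called with a smaller response and 1 with a larger one, in S181E and in Y396E alike. Over all genes 6.98% and 10.3% were called with a larger one. Of the 6 other HSP70 genes 1 was called with a smaller response and 0 with a larger one in each. BAG3 had -0.48 ± 0.08 and -0.40 ± 0.08, and HSPA9 -0.56 ± 0.09 and -0.55 ± 0.09, while HSPA5 was not called (0.03 ± 0.13 and 0.11 ± 0.13). HSF1, the transcription factor that drives the inducible members and was named here after its values were seen, was itself lower in S181E and Y396E than in WT, by -0.63 ± 0.05 and -0.58 ± 0.05 in control (adjusted p = 1.97e-10 and 9.13e-10) and by -0.50 ± 0.05 and -0.54 ± 0.05 in arsenite (adjusted p = 1.69e-08 and 3.29e-09), and its part in the members' values was not tested. In RQ it differed by -0.13 ± 0.05 and 0.00 ± 0.05, neither called. Of the 4 tested genes listed as HSF1 and its regulators, 1 was called higher and 2 lower in S181E and in Y396E control. Over all genes 15.7% and 14.5% were called higher there and 15.4% and 14.2% lower. In arsenite 0 of the 4 were higher, with 2 lower in S181E and 1 in Y396E. Over all genes 8.42% and 11.9% were called lower there. Arsenite itself left HSF1 without a call in WT (-0.15 ± 0.05), and HSF2 rose by 1.54 ± 0.11 while HSBP1 (-0.62 ± 0.05) and HSBP1L1 (-0.63 ± 0.08) fell.

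Across the 24 tagged libraries, ARID4B (Pearson r = 0.9887) and BAG3 (0.9882) were among the 3 genes of 9094 non-members whose log2 CPM followed HSPA1A most closely. For HSPA8 the 3 closest were NCOA6 (0.9962), UBAP2L (0.9957) and TRIP12 (0.9947). These values are descriptions, since all libraries share the step between control and arsenite.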

How the data were processed

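Poly(A) RNA from cleared lysates was made into strand-specific libraries and read as single 100-base reads. Per the submitters' notes, reads were handled with bcl2fastq 2.20.0.422 and FastQC 0.11.9, and the authors aligned them to hg38 with STAR 2.7.11b and GENCODE 46. The deposited values are raw read counts per gene, made by the authors with featureCounts (Subread 2.0.6, strand setting 2), which left out multi-mapped reads. Counts on regions shared by HSPA1A and HSPA1B are therefore missing. Of 63086 identifiers, 99.1% matched a symbol in GENCODE 44.

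Groups came from the sample labels. edgeR 4.0.16 (R 4.3.3) quasi-likelihood tests were fitted to all 24 tagged libraries over protein-coding genes with TMM factors (0.866 to 1.08), a biological coefficient of variation of 0.0682 and 16 residual degrees of freedom, and p-values were Benjamini-Hochberg adjusted. Totals were 22508145 to 50834401 counts. No 2 replicates agreed within sampling noise (chi-square per gene 2.58 to 56). DESeq2 1.42.0, other scalings, filters, thresholds and left-out libraries were alternatives. The steps were tested on simulated counts. Members, named genes and lists were chosen with earlier results of these data known. Named genes were the members, the list genes with the largest called rises and falls in WT, and the 3 genes most like HSPA1A and HSPA8, of which 1 is not reported here. HSF1 was added after its values were seen.

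Replicate numbers are shared by all groups in the labels. Deviations of same-numbered libraries from their group means correlated above 0.1 in all 3 pairs in 2 of 12 comparisons, RQ against WT in control (0.291, 0.525 and 0.472) and in arsenite (0.148, 0.147 and 0.15).

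Protein sequences were not used here.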

Additional observations from a re-analysis of the deposited data

Results flagged for a closer look

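The arsenite responses below were set apart because the difference between the response of a mutant population and that of WT passed the test of that difference (edgeR interaction term). In S181E the log2 differences were -1.32 for HSPA1B, -1.46 for HSPA1A, -0.72 for HSPH1, -0.49 for HSPA8, -0.48 for HSPA4 and -0.47 for HSPA4L. In Y396E they were -1.18 for HSPA1B, -0.70 for HSPH1, -0.46 for HSPA8, -0.45 for HSPA4 and -0.38 for HSPA4L. In RQ the difference for HSPA1B was 0.53, in the opposite direction. Groups of 3 libraries were too small to test for single libraries far from the others.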

How the results depend on the processing

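Of 1332 log2 changes of members under 12 alternatives, 1287 kept their direction and side of the threshold, as did 2887 of 2952 with 1 of 24 libraries left out. No reversed value belonged to a called change. With a fold threshold of 2, called members fell to 0 in RQ, S181E and Y396E control, 0 in RQ arsenite, 1 in S181E arsenite, 0 for the RQ response and 1 each for the S181E and Y396E responses. Library totals gave 4 called members in S181E control, 0 in RQ arsenite and 0 for the RQ response, and the adjusted p alone gave 4 in S181E control. The RQ response also had 0 with the lower filter, and RQ control 0 when only the groups compared were fitted. Leaving out 1 library gave 1 to 2 called members in RQ control, 2 to 3 in S181E and in Y396E arsenite, 0 to 1 for the RQ response and 4 to 5 for the Y396E response. The cause was not tested.

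HSPA4 in S181E arsenite against WT turned to 0.00 with RLE size factors, DESeq2 and no filter and to 0.04 with library totals, and HSPA4L in Y396E arsenite to 0.01 with library totals. With 1 library left out, the values that changed sign ran, against control, from -0.11 to 0.22 for HSPA1L in WT. Against WT they ran from -0.45 to 0.26 for HSPA1L in RQ control, -0.07 to 0.35 and -0.06 to 0.26 for HSPA1L in S181E and Y396E arsenite, -0.02 to 0.01 for HSPA4 in S181E arsenite and -0.10 to 0.05 for HSPA4L in Y396E arsenite. For responses they ran from -0.03 to 0.17 for HSPA4 in RQ and from -0.17 to 0.54 and -0.43 to 0.29 for HSPA2 in S181E and Y396E. Between Y396E and S181E control they ran from -0.12 to 0.01 for HSPA1B, -0.08 to 0.01 for HSPA8, -0.08 to 0.05 for HSPA4L and -0.19 to 0.35 for HSPA2. In arsenite they ran from -0.05 to 0.02 for HSPA8, -0.04 to 0.12 for HSPA4L, -0.01 to 0.42 for HSPA1A, -0.30 to 0.12 for HSPA1L and -0.22 to 0.01 for HSPA2.

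With the longest transcript as length, HSPA8 took 84.9% and 71.7% of the summed level in WT control and arsenite, HSPA1B 2.46% and 16.5% and HSPH1 4.12% and 6.24%. With countable windows for HSPA1A, HSPA1B and HSPA6 alone these were 76.1% and 43%, 10.6% and 47.9%, and 4% and 4.05%. Counting 2 heat shock units gave 6 members with an element.

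A fit with the replicate number as a block changed no count of called members, for example 1 for RQ in control, where the numbers pair the libraries, and 5 for arsenite in WT.

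Low counts limit HSPA6, HSPA1L and the control levels of HSPA1A and HSPA2, and regions shared by HSPA1A and HSPA1B cannot be counted at any depth.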
